A study of Mus musculus with 14 samples.

Results

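Interferon-stimulated and DNA-sensing genes are described here in the cortex and the hippocampus of mice depleted of TRF2, the telomere-protecting shelterin protein encoded by Terf2. The set of 35 genes was chosen by name from known roles in the pathway, with earlier results of these data known. All 35 were found among the 20492 gene symbols of each deposited table. The FPKM (fragments scaled by transcript length and by the fragments mapped) of a gene was summed over its coding-sequence rows, and a gene was kept with at least 0.2 FPKM in any condition of the tissue. This kept 30 of 35 members in cortex, of 13684 genes kept in all, and 31 of 35 in hippocampus, of 14096 genes kept in all.

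The labels give 3 TRF2-depleted and 4 control cortex samples, and 3 TRF2-depleted and 3 control hippocampus samples, all from C57BL/6 mice. The design text gives an age of 3 months and calls the cohorts TRF2-DCX-cre and WT. The cohort name points to recombination in cells that have used the promoter of Dcx, which is active in immature neurons. A further TRF2-depleted sample is labelled with both tissues and was put in no group. The pooling was done by the authors, so this sample could still be part of a TRF2-depleted value of cortex or hippocampus. The number of samples behind those values is therefore uncertain. The hippocampus table also holds a condition named DKO, which the labels do not describe, so its genotype and number of samples are unknown here. The authors' deposited tables hold 1 pooled FPKM value per condition, so no value below has a spread between samples, and the depth of the samples is unknown. The error between samples enters only through the authors' own test, whose p-values and q-values (p adjusted over many rows) are given where a row was tested. Since whole tissue was sequenced, fewer cells of a type and less RNA per cell cannot be told apart.

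DNA outside the nucleus is sensed by the enzyme cGAS, which activates the adaptor STING (Tmem173), the kinase TBK1 and the transcription factor IRF3. RNA in the cytosol is sensed by RIG-I (Ddx58) and MDA5 (Ifih1), and both routes lead to type I interferon. Interferon then acts through a complex that holds STAT2 and IRF9 on a promoter sequence, the interferon-stimulated response element, and switches on antiviral and antigen-presenting genes. In healthy brain the level of most of these genes is low, and microglia and cells of the vessels and meninges are known sources of them.

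RefSeq promoter windows (GRCm38.p6, 250 bases before to 50 after a start) were matched by symbol for 27 members. The interferon-stimulated response element, searched on both strands as GAAA, any 2 bases and GAAA again, was in a window of 12 of these 27 genes (44.4%) and of 1079 of 27025 genes in all (3.99%). The gamma-activated site, TTCNNNGAA, which reads the same on both strands, was in a window of 7 of 27 members (25.9%) and of 9.55% of all genes. A match describes the letters only. The 5 windows below belong to the members with the smallest deposited p among those that hold the first motif. None of these 5 members was called in any comparison below, and capitals mark the motif.
B2m (chr2:122147437-122147736, plus strand): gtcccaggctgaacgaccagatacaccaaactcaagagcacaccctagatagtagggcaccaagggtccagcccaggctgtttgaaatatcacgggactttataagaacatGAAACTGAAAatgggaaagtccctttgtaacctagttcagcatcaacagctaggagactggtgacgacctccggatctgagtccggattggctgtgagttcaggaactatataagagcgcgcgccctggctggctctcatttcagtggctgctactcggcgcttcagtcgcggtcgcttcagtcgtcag
Ifitm2 (chr7:140955912-140956211, minus strand): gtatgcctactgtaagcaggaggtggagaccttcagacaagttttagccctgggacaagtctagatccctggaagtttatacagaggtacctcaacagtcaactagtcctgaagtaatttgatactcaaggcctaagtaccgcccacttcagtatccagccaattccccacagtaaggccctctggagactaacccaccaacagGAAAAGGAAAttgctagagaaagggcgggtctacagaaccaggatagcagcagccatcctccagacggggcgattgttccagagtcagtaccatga
Stat2 (chr10:128270248-128270547, plus strand): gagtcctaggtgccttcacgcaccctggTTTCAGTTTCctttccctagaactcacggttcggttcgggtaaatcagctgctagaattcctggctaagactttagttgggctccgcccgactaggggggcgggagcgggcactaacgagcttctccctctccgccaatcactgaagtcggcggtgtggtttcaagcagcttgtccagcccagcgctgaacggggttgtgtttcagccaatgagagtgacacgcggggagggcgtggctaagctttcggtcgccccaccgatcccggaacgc
Ifitm3 (chr7:141010695-141010994, minus strand): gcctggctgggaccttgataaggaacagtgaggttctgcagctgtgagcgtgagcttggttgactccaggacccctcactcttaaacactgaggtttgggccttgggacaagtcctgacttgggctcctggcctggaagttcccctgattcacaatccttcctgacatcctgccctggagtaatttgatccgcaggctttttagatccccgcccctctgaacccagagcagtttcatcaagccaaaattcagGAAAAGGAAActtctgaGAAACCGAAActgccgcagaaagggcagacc
Bst2 (chr8:71537423-71537722, minus strand): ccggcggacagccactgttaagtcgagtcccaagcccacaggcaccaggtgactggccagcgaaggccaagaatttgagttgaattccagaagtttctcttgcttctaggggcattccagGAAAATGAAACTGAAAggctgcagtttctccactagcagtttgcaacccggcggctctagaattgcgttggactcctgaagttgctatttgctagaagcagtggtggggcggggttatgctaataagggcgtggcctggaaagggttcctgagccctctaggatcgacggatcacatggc
B2m, Ifitm2 and Stat2 have 1 match each, which in Stat2 lies on the opposite strand to the gene. Ifitm3 and Bst2 have 2 matches each, and those of Bst2 overlap in 1 run of capitals. In Ifitm3 and Bst2 a gamma-activated match shares bases with the capitals. Lgals3bp, the member with the smallest deposited p, has no match to either motif in its window.

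Terf2 was at 0.202 FPKM in TRF2-depleted and 3.59 FPKM in control cortex, summed over 3 rows (log2 ratio -4.15). In hippocampus it was at 0.883 FPKM in the TRF2-depleted group, 0.753 FPKM in DKO and 2.01 FPKM in control (log2 ratios against control -1.19 and -1.42). The authors' deposited table tested 1 row of it, in cortex (p = 0.105, q = 0.576), so its level was lower where the labels give TRF2 depletion, and the difference did not pass. The 7 markers of cortical neurons summed to 112 and 110.4 FPKM in TRF2-depleted and control cortex, and 7 markers of hippocampal neurons to 89.8, 102 and 101 FPKM in TRF2-depleted, DKO and control hippocampus. Of the hippocampal markers 2 of 7, Fibcd1 and Cpne7, were higher in TRF2-depleted than in control. In DKO 4 of 7 were higher than in control, namely those 2 with Wfs1 and Zbtb20. The 3 lower in both were Prox1, Dsp and C1ql2, markers of the dentate gyrus, which were not a separate list. They were at 1.38, 1.16 and 11.4 FPKM in TRF2-depleted and 4.88, 3.27 and 19.2 FPKM in control hippocampus. In DKO they were at 2.64, 1.38 and 12.7 FPKM. The part of these marker differences in the members' values was not tested.

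The level of the set was carried by B2m, the light chain of MHC class I. It was at 53.6 FPKM in TRF2-depleted and 52.2 FPKM in control cortex, which is 49.9% and 51.3% of the summed level of the kept members. Next came Ifi27, an interferon-induced membrane protein, at 9.50 and 9.13 FPKM in the same order, followed by Ifitm3, Tbk1 and Ifitm2. The same 5 genes were highest in each hippocampus condition, with Ifitm3 and Tbk1 changing places between conditions. The median kept member was at 0.915 FPKM in TRF2-depleted and 0.853 FPKM in control cortex, against medians of 3.50 and 3.55 FPKM over all genes kept. In hippocampus the median member was at 1.13 FPKM in the TRF2-depleted group, 0.920 FPKM in DKO and 0.816 FPKM in control. Most members were thus weakly represented, which limits how well a ratio is known. FPKM is scaled by length, so these levels can be compared between genes. The tables were normalized separately, so levels are not compared between tissues.

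**Figure D1:**
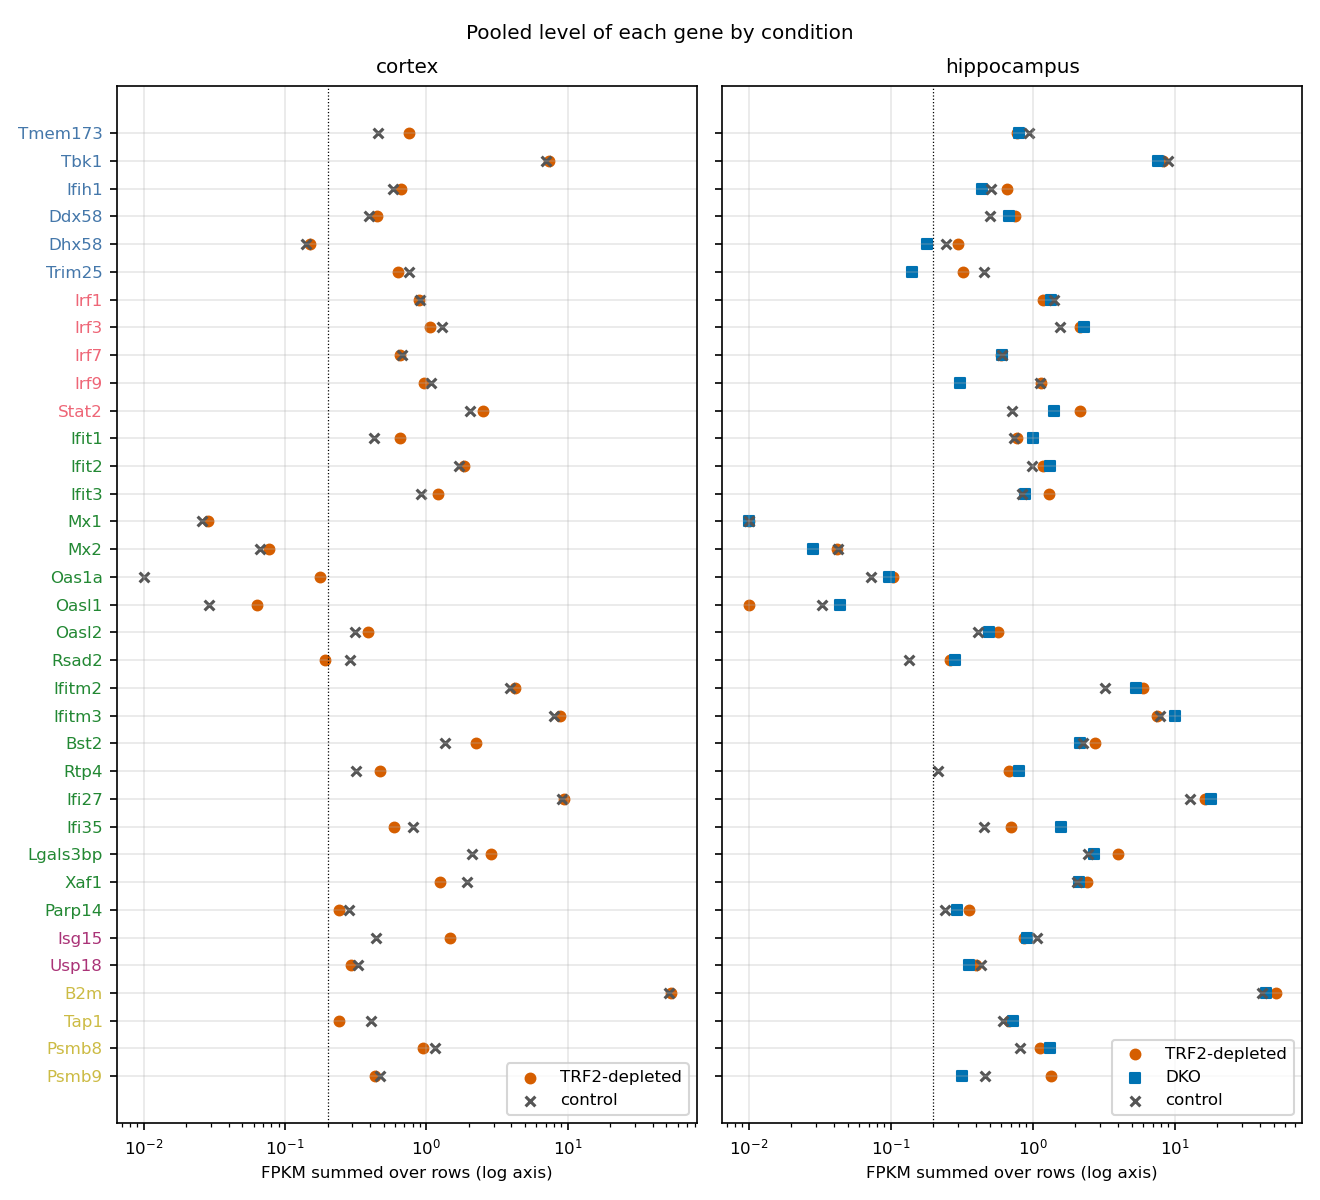
Pooled FPKM of each gene on a log axis, summed over its rows, in cortex (left) and hippocampus (right), where each marker is 1 condition. The dotted line is the minimum of 0.2 FPKM, values under 0.01 FPKM, 0 included, are drawn at 0.01, and gene names are coloured by role; B2m, at 53.6 and 52.2 FPKM in TRF2-depleted and control cortex, is highest in both panels.

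Genes below the minimum were antiviral effectors and 1 RNA sensor. Mx1, an antiviral GTPase known to be defective in C57BL/6 mice, reached 0.0284 FPKM in cortex and 0.000390 FPKM in hippocampus at most, and its relative Mx2 reached 0.0775 and 0.0423 FPKM. Oas1a and Oasl1, of the family that makes or resembles 2-5A synthetases, reached 0.178 and 0.0632 FPKM in cortex and 0.104 and 0.0441 FPKM in hippocampus. Dhx58, a regulator of RNA sensing, reached 0.150 FPKM in cortex and passed in hippocampus at 0.296 FPKM. The members kept with the lowest maximum were Parp14 in cortex (0.284 FPKM) and Rsad2 in hippocampus (0.282 FPKM).

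None of the members was called in any of the 4 comparisons at a q of 0.05 by the authors' Cuffdiff test. In cortex, 8 rows of 7 members were tested, 0 had an unadjusted p under 0.05, and the background over all tested rows in the authors' deposited table was 0.304% called and 6.24% with p under 0.05. In hippocampus, TRF2-depleted against control, 10 rows of 9 members were tested, 0 were called and 3 had p under 0.05, against 0.163% and 4.89% of all tested rows in the authors' deposited table. For DKO against control 9 rows of 8 members were tested, with 0 called and 0 at p under 0.05, against 0.181% and 6.71% in the authors' deposited table. For DKO against the TRF2-depleted group 10 rows of 9 members were tested, with 0 called and 1 at p under 0.05, against 0.154% and 4.79% in the authors' deposited table. The other 26 to 28 members had no tested row in a comparison, so for them only pooled values can be given. A missed threshold does not show that values were alike: of tested hippocampus rows with at least a 1.5-fold ratio between the TRF2-depleted and control groups, 14.1% had p under 0.05, and 10.4% of those with a mean of 1 to 5 FPKM.

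In hippocampus, more members were higher than lower in the TRF2-depleted group. Of 31 kept members 23 were higher and 8 lower (74.2% higher), with a median log2 ratio of 0.31, against 51.6% higher and a median of 0.01 over all genes kept. At least a 1.5-fold higher level was seen for 9 members (29.0%, against 9.95% of all genes) and a 1.5-fold lower level for 0 (against 8.16% of all genes). The 9 were Rtp4, Stat2, Psmb9, Rsad2, Ifitm2, Lgals3bp, Ifi35, Ifit3 and Ddx58. In DKO against control 20 were higher and 11 lower, with a median of 0.14 (0.02 over all genes). There 6 members were at least 1.5-fold higher (19.4%, against 10.1% of all genes) and 2 lower (6.45%, against 7.19%). The 6 were Rtp4, Ifi35, Rsad2, Stat2, Ifitm2 and Psmb8, and the lower ones Irf9 and Trim25. Rsad2, counted as higher in both, was at 0.135 FPKM in control and passed the minimum through TRF2-depleted and DKO alone. These comparisons share the control samples, and the members were chosen with earlier results of these data known. In cortex 17 of 30 were higher and 13 lower, with a median of 0.07 (-0.02 over all genes). There 4 were at least 1.5-fold higher (13.3%, against 7.17% of all genes) and 2 lower (6.67%, against 7.50%). The higher ones were Isg15, Tmem173, Bst2 and Ifit1, and the lower ones Tap1 and Xaf1.

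**Figure D2:**
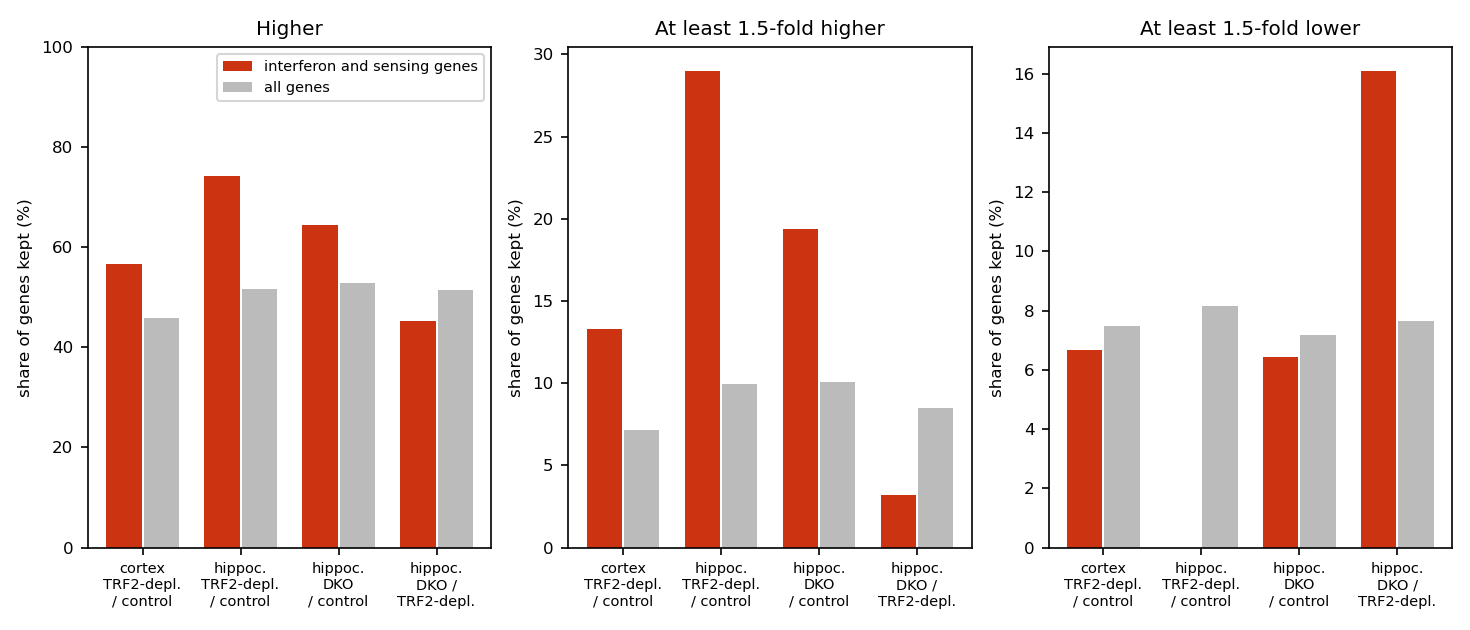
Share of the kept interferon and sensing genes (red) and of all genes kept (grey) that were higher, at least 1.5-fold higher and at least 1.5-fold lower in each of the 4 comparisons, in percent. In hippocampus, 29.0% of these genes were at least 1.5-fold higher in the TRF2-depleted group than in control, beside 9.95% of all genes.

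Low genes scatter more than abundant ones, so the counts were also read by level. Under a mean of 1 FPKM, 5 of 17 members were at least 1.5-fold higher in TRF2-depleted than in control hippocampus (29.4%), against 27.0% of all genes at that level. From 1 to 5 FPKM the count was 4 of 10 (40.0%), against 9.10% of all genes at that level. The 4 members were Stat2, Ifitm2, Lgals3bp and Ifit3. At 5 FPKM or more it was 0 of 4, against 1.59%. For DKO against control the counts were 2 of 17 (11.8%, against 24.5%), 4 of 10 (40.0%, against 10.1%) and 0 of 4 (against 2.46%). In cortex they were 3 of 16 (18.8%, against 20.0%), 1 of 10 (10.0%, against 6.49%) and 0 of 4 (against 1.27%). By direction, 12 of 17 members below 1 FPKM were higher in TRF2-depleted than in control hippocampus, at a median log2 ratio of 0.36 (0.10 over all genes of that level), and 0 were at least 1.5-fold lower (18.5% of all genes of that level). From 1 to 5 FPKM 9 of 10 were higher, at a median of 0.37 (0.01 over all genes of that level). In that comparison the members below 1 FPKM thus had a share at least 1.5-fold higher that was near the background, and a median above it.

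**Figure D3:**
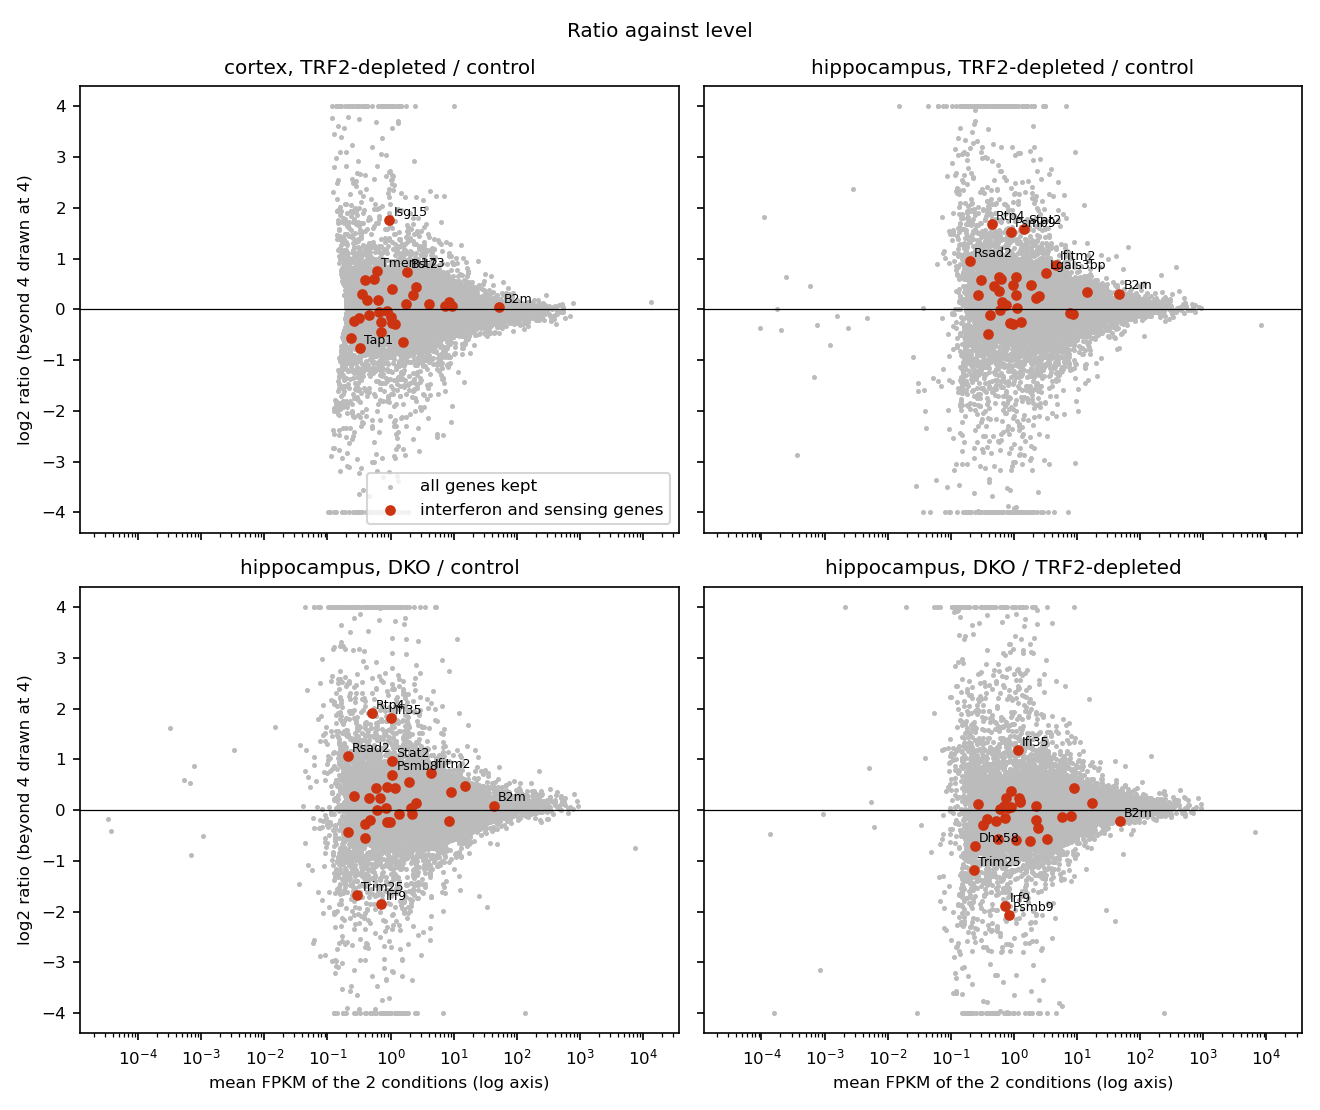
Log2 ratio of FPKM against the mean FPKM of the compared conditions (log axis) for all genes kept (grey) and the interferon and sensing genes (red), with 1 panel per comparison and ratios beyond 4 drawn at 4. The grey cloud widens below 5 FPKM, where most red points lie, and B2m, labelled at the right of each panel, lies between -0.22 and 0.31.

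Of the kept sensing genes, 4 of 5 were higher in TRF2-depleted than in control cortex (median log2 ratio 0.19). In hippocampus 3 of 6 were higher in TRF2-depleted than in control (median 0.09) and 1 of 6 in DKO than in control (median -0.23). Over all genes kept, 45.9%, 51.6% and 52.8% were higher in the same order. STING (Tmem173, chromosome 18 from 35733678 to 35740554) was at 0.758 FPKM in TRF2-depleted and 0.452 FPKM in control cortex (log2 ratio 0.75), and at 0.780 FPKM in TRF2-depleted, 0.805 FPKM in DKO and 0.949 FPKM in control hippocampus (log2 ratios against control -0.28 and -0.24). Its 3 rows were untested, and the most abundant had 0.304 and 0.378 FPKM in TRF2-depleted and control cortex, a log2 ratio of -0.31 opposite in sign to the sum. The kinase Tbk1 (chromosome 10 from 121546456 to 121586794) was the abundant sensing gene. It was at 7.42 FPKM in TRF2-depleted and 7.06 FPKM in control cortex (log2 ratio 0.07, p = 0.575, q = 0.874 in the authors' deposited table). In hippocampus it was at 8.29 FPKM in TRF2-depleted, 7.68 FPKM in DKO and 8.92 FPKM in control. The log2 ratio of Tbk1 in TRF2-depleted against control hippocampus was -0.10 (p = 0.497, q = 0.922 in the authors' deposited table), and that in DKO -0.22 (p = 0.137, q = 0.886).

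The RNA sensors were all under 1 FPKM and untested. RIG-I (Ddx58) was at 0.448 and 0.392 FPKM in TRF2-depleted and control cortex, and at 0.754 FPKM in TRF2-depleted, 0.678 FPKM in DKO and 0.502 FPKM in control hippocampus. MDA5 (Ifih1) was at 0.664 and 0.582 FPKM in TRF2-depleted and control cortex, and at 0.656, 0.443 and 0.511 FPKM in TRF2-depleted, DKO and control hippocampus. Both were thus higher in the TRF2-depleted group than in control in either tissue, with log2 ratios of 0.19 each in cortex and 0.59 and 0.36 in hippocampus. Trim25, a ubiquitin ligase that acts on RIG-I, went the other way at 0.633 and 0.758 FPKM in TRF2-depleted and control cortex. In hippocampus Trim25 was at 0.322 FPKM in TRF2-depleted, 0.141 FPKM in DKO and 0.452 FPKM in control (log2 ratio of DKO against control -1.68, untested).

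Of the transcription factors, Stat2 had the highest ratio in each comparison with control, while Irf9 had the lowest in DKO. STAT2 works with IRF9 in the complex that answers type I interferon. Stat2 (chromosome 10 from 128270573 to 128292912) was at 2.16 FPKM in TRF2-depleted, 1.41 FPKM in DKO and 0.720 FPKM in control hippocampus, and at 2.50 and 2.05 FPKM in TRF2-depleted and control cortex. Within hippocampus, control was therefore the low condition. The ratio of Stat2 in TRF2-depleted against control hippocampus was 3.01-fold (log2 1.59, p = 0.213, q = 0.886 in the authors' deposited table) and did not pass. The locus of Stat2 overlaps Apof and differs between the tables. In cortex its log2 ratio was 0.29 (p = 0.0999, q = 0.571 in the authors' deposited table).

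Irf3, the factor activated by TBK1, was at 1.07 and 1.30 FPKM in TRF2-depleted and control cortex, and at 2.17 FPKM in TRF2-depleted, 2.29 FPKM in DKO and 1.57 FPKM in control hippocampus (p = 0.643 for TRF2-depleted and p = 0.395 for DKO against control in the authors' deposited table). Irf7, which amplifies the response once it is induced, was nearly level as a sum over its 3 rows, at 0.654 and 0.678 FPKM in TRF2-depleted and control cortex, and 0.595, 0.608 and 0.605 FPKM in TRF2-depleted, DKO and control hippocampus. Irf1, a factor of the interferon gamma response, was at 0.881 and 0.902 FPKM in TRF2-depleted and control cortex, and at 1.19, 1.34 and 1.41 FPKM in TRF2-depleted, DKO and control hippocampus. No value of Irf1 or Irf7 differed by 1.5-fold. Irf9 was at 1.14 FPKM in TRF2-depleted, 0.308 FPKM in DKO and 1.12 FPKM in control hippocampus (log2 ratio of DKO against control -1.86, untested). The FPKM of Irf9 lay in different rows by condition. The row at 1.01 FPKM in control was at 0.000236 FPKM in TRF2-depleted and 0.000136 FPKM in DKO hippocampus in the authors' deposited table, and the deposited locus also overlaps Rnf31, so the sum for Irf9 is uncertain. The same holds for STING, Ifih1, Irf7 and Tap1, whose untested rows differed in opposite directions in hippocampus, and for Ifi27.

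The antiviral effectors, 14 of the 31 kept members, made up most of the higher values in hippocampus. Of 14 kept effectors 13 were higher in TRF2-depleted than in control hippocampus (median log2 ratio 0.51), 13 in DKO than in control (median 0.40), and 10 in TRF2-depleted than in control cortex (median 0.13). Over all genes kept, 51.6%, 52.8% and 45.9% were higher in the same order. None of the effectors passed the authors' test. The smallest p was that of Lgals3bp, a secreted galectin-3-binding glycoprotein induced by interferon (chromosome 11 from 118392752 to 118401931). It was at 4.02 FPKM in TRF2-depleted, 2.70 FPKM in DKO and 2.45 FPKM in control hippocampus, and at 2.87 and 2.12 FPKM in TRF2-depleted and control cortex. The TRF2-depleted group was the high one, and DKO was close to control. Its log2 ratio in TRF2-depleted against control hippocampus was 0.71 (p = 0.00435, q = 0.469 in the authors' deposited table), and in cortex 0.44 (p = 0.0706, q = 0.519). For DKO against the TRF2-depleted group it was -0.57 (p = 0.0114, q = 0.661 in the authors' deposited table), and against control 0.14 (p = 0.564, q = 0.939).

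Ifitm2 and Ifitm3 are neighbouring membrane proteins that block virus entry, and they differed from each other. Ifitm2 (chromosome 7 from 140954839 to 140955961) was at 5.95 FPKM in TRF2-depleted, 5.39 FPKM in DKO and 3.23 FPKM in control hippocampus, and at 4.24 and 3.93 FPKM in TRF2-depleted and control cortex. Ifitm3 (chromosome 7 from 141009590 to 141010744) was at 7.53 FPKM in TRF2-depleted, 10.1 FPKM in DKO and 7.91 FPKM in control hippocampus, and at 8.84 and 8.01 FPKM in TRF2-depleted and control cortex. Ifitm2 was thus above control in both other hippocampus conditions, Ifitm3 in DKO. The log2 ratio of Ifitm2 was 0.88 in TRF2-depleted (p = 0.0445, q = 0.886) and 0.74 in DKO against control (p = 0.0708, q = 0.886), in the authors' deposited table. That of Ifitm3 was -0.07 (p = 0.827, q = 0.984) and 0.36 (p = 0.209, q = 0.886) in the authors' deposited table. The genes are similar in sequence, and reads could have been divided between them.

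Effectors with the largest ratios were low and untested. Rtp4, an interferon-induced chaperone of receptors, was at 0.684 FPKM in TRF2-depleted, 0.805 FPKM in DKO and 0.214 FPKM in control hippocampus (3.19-fold and 3.76-fold over control). In cortex it was at 0.471 and 0.316 FPKM in the TRF2-depleted and control groups. Rsad2, the antiviral enzyme viperin, was at 0.260 FPKM in TRF2-depleted, 0.282 FPKM in DKO and 0.135 FPKM in control hippocampus, but at 0.193 and 0.287 FPKM in TRF2-depleted and control cortex. Its direction thus differed between the tissues, a difference that was not tested. Ifi35 was at 0.703 FPKM in TRF2-depleted, 1.59 FPKM in DKO and 0.453 FPKM in control hippocampus (log2 ratio of DKO against control 1.81). In cortex Ifi35 was at 0.589 and 0.805 FPKM in the TRF2-depleted and control groups.

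Of the IFIT proteins, which bind viral RNA, Ifit3 was at 1.31 FPKM in TRF2-depleted, 0.877 FPKM in DKO and 0.845 FPKM in control hippocampus, and at 1.21 and 0.922 FPKM in TRF2-depleted and control cortex. Ifit1 was at 0.781, 1.01 and 0.736 FPKM in TRF2-depleted, DKO and control hippocampus, and at 0.651 and 0.428 FPKM in TRF2-depleted and control cortex. Ifit2 was at 1.19, 1.33 and 0.983 FPKM in TRF2-depleted, DKO and control hippocampus, and at 1.85 and 1.71 FPKM in TRF2-depleted and control cortex. All 3 were untested and above control in each comparison. Ifit3 and Ifit1 have close copies among which reads could be divided. Bst2, or tetherin, which holds budding virus at the cell surface, was at 2.25 and 1.35 FPKM in TRF2-depleted and control cortex (log2 ratio 0.74, untested). In hippocampus Bst2 was at 2.73, 2.14 and 2.27 FPKM in TRF2-depleted, DKO and control (log2 ratio of TRF2-depleted against control 0.27, p = 0.541, q = 0.932 in the authors' deposited table).

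Ifi27 was at 16.3 FPKM in TRF2-depleted, 18.0 FPKM in DKO and 12.9 FPKM in control hippocampus, summed over 5 rows. Its most abundant row was level, at 11.7 and 10.7 FPKM in TRF2-depleted and control hippocampus (log2 ratio 0.13, p = 0.622) in the authors' deposited table. The difference lay in another row at 4.48 and 1.04 FPKM (log2 ratio 2.11, p = 0.234, q = 0.886 in the authors' deposited table). Xaf1, an interferon-induced partner of the caspase inhibitor XIAP, was at 1.25 and 1.95 FPKM in TRF2-depleted and control cortex (log2 ratio -0.65, untested), the lowest ratio there among members of at least 1 FPKM. In hippocampus it was at 2.41, 2.11 and 2.05 FPKM in TRF2-depleted, DKO and control. The remaining effectors, Oasl2 and Parp14, lay between 0.241 and 0.566 FPKM in all conditions.

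**Figure D4:**
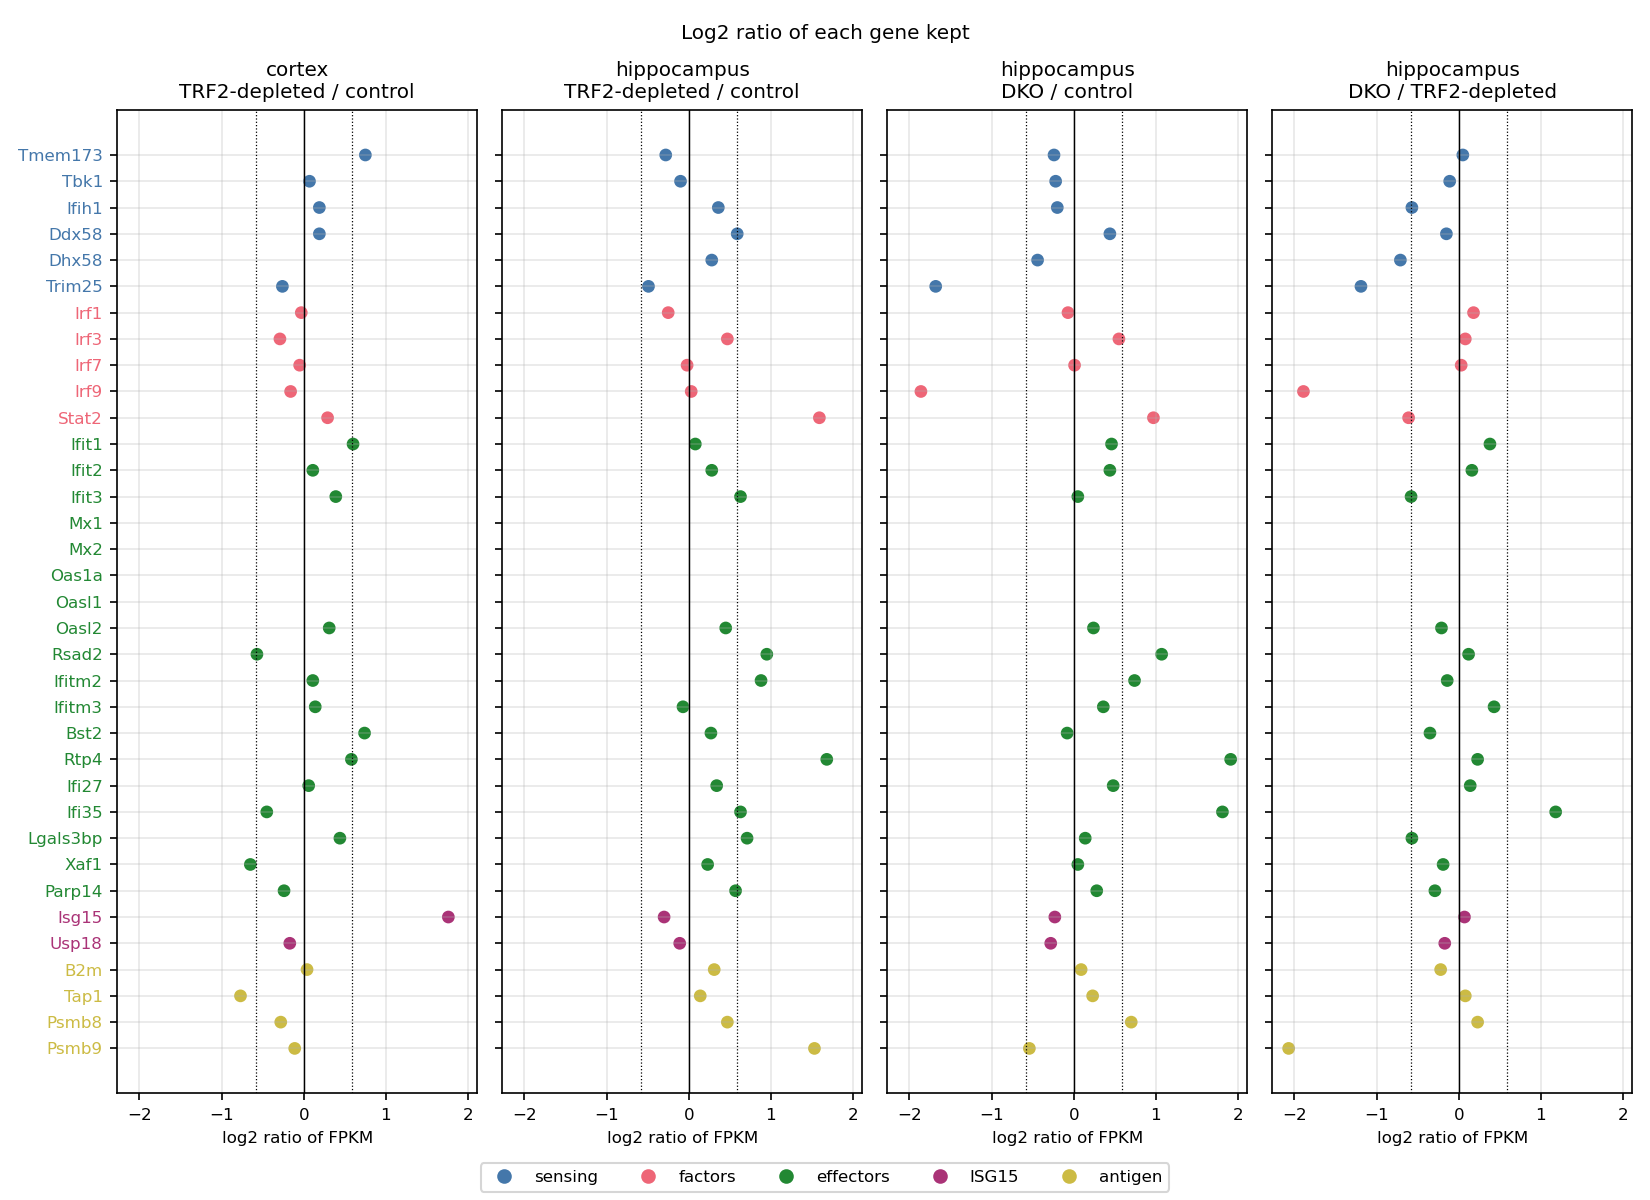
Log2 ratio of pooled FPKM for each kept gene in the 4 comparisons, coloured by role, with dotted lines at a 1.5-fold difference in either direction. Of 14 effectors (green), 13 lie right of 0 in TRF2-depleted against control hippocampus and in DKO against control, while Isg15 stands apart in cortex at 1.76.

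Isg15, a ubiquitin-like protein that is among the most inducible interferon targets, was higher in TRF2-depleted cortex and not in hippocampus. It was at 1.48 FPKM in TRF2-depleted and 0.438 FPKM in control cortex, a ratio of 3.38-fold (log2 1.76) that the authors did not test (chromosome 4 from 156199424 to 156200818). In hippocampus it was at 0.874 FPKM in TRF2-depleted, 0.920 FPKM in DKO and 1.08 FPKM in control (log2 ratios against control -0.30 and -0.23). Usp18, the enzyme that removes ISG15 and restrains the interferon receptor, was lower at 0.294 and 0.330 FPKM in TRF2-depleted and control cortex, and 0.400, 0.355 and 0.431 FPKM in TRF2-depleted, DKO and control hippocampus. Whether the ratio of Isg15 differs between the tissues was not tested.

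Of the antigen-processing genes, B2m (chromosome 2 from 122120108 to 122186189) was at 51.5 FPKM in TRF2-depleted, 44.2 FPKM in DKO and 41.6 FPKM in control hippocampus. The log2 ratio in TRF2-depleted against control hippocampus was 0.31 (p = 0.0414, q = 0.886 in the authors' deposited table), and for DKO 0.09 (p = 0.538, q = 0.931). In cortex the log2 ratio of B2m was 0.04 (p = 0.758, q = 0.944 in the authors' deposited table). Its deposited locus also spans Patl2 and Trim69. Psmb9, a catalytic subunit of the immunoproteasome, was at 1.34 FPKM in TRF2-depleted, 0.319 FPKM in DKO and 0.464 FPKM in control hippocampus, and at 0.432 and 0.467 FPKM in TRF2-depleted and control cortex. Within hippocampus, the TRF2-depleted group was the high condition, at 2.88-fold over control (untested).

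The neighbours of Psmb9 shared its direction in the TRF2-depleted group of both tissues, with smaller ratios in hippocampus. In DKO they were above control, while Psmb9 was below it. Psmb8, its partner in the immunoproteasome, was at 1.13, 1.32 and 0.816 FPKM in TRF2-depleted, DKO and control hippocampus, and at 0.948 and 1.15 FPKM in TRF2-depleted and control cortex. Tap1, a subunit of the peptide transporter, was at 0.687, 0.727 and 0.621 FPKM in TRF2-depleted, DKO and control hippocampus, and at 0.240 and 0.408 FPKM in TRF2-depleted and control cortex. Both were untested, and both were lower in the TRF2-depleted group than in control in cortex and higher in hippocampus.

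Set directly against the TRF2-depleted group, DKO hippocampus had 14 members higher and 17 lower, with a median log2 ratio of -0.14 (0.01 over all genes). There 1 member, Ifi35, was at least 1.5-fold higher (3.23%, against 8.51% of all genes) at a log2 ratio of 1.18. At least 1.5-fold lower were 5 (16.1%, against 7.66%): Psmb9 (log2 ratio -2.07), Irf9 (-1.89), Trim25 (-1.19), Dhx58 (-0.71) and Stat2 (-0.61). Of these Stat2 was tested (p = 0.306, q = 0.888 in the authors' deposited table). The other 4 are under 1 FPKM in DKO and untested. Of the 6 sensing genes 5 were lower in DKO than in the TRF2-depleted group, while the 14 effectors split evenly at 7 and 7. Over all genes kept, 51.4% were higher in DKO than in the TRF2-depleted group.

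Between the tissues, 13 of 30 members kept in both were higher in the TRF2-depleted group than in control in cortex and in hippocampus (43.3%, against 23.9% of 13291 genes). A further 4 were lower in both, namely Trim25, Irf1, Irf7 and Usp18, while 4 were higher in cortex only and 9 in hippocampus only. Members were also more often higher within each tissue, at 56.7% against 45.9% of all genes in cortex and 74.2% against 51.6% in hippocampus. This raises the share higher in both by itself, and whether the directions were related between the tissues was not tested. No member was at least 1.5-fold higher in both. The labels do not say whether the tissues came from the same animals, so these counts are a description.

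The other genes of the pathway, 86 in 5 lists, gave no row called by Cuffdiff in any comparison. At an unadjusted p under 0.05 there were 1 of 27 tested rows in cortex, 4 of 30 in TRF2-depleted against control hippocampus, 2 of 29 in DKO against control and 0 of 29 in DKO against TRF2-depleted. The shares over all tested rows were 6.24%, 4.89%, 6.71% and 4.79% in the same order, so the counts in cortex and in DKO against control were near them. In hippocampus 62 genes of these lists were kept. Against control, 35 of them were higher and 27 lower in the TRF2-depleted group (56.5% higher, against 51.6% of all genes). At least 1.5-fold higher were 7 (11.3%, against 9.95% of all genes), and at least 1.5-fold lower were 9 (14.5%, against 8.16%). Of 9 interferon genes 8 were listed at 0 in all conditions. The exception, Ifnk, was listed at 0.184 and 0.406 FPKM in TRF2-depleted and control cortex and at 0.0990 FPKM in control hippocampus. The sensor cGAS (Mb21d1) was at 0.0936 and 0.0487 FPKM in TRF2-depleted and control cortex, under the minimum in both. In hippocampus it was at 0.0745, 0.0961 and 0.222 FPKM in TRF2-depleted, DKO and control, and passed the minimum through control alone. Against control it was thus lower in hippocampus, unlike most effectors, and higher in cortex. Of 33 further interferon-stimulated genes in the table, 23 were kept in hippocampus. Of these 17 were higher and 6 lower in TRF2-depleted against control (73.9% higher, against 51.6% of all genes), with a median log2 ratio of 0.15. They numbered 14 higher and 8 lower in DKO against control (63.6% higher, against 52.8% of all genes, median 0.16). In cortex 10 were higher and 11 lower (47.6% higher, against 45.9% of all genes, median -0.04). Just 2 of these genes were tested in either tissue, among them Cmpk2, a mitochondrial nucleotide kinase, at 3.82, 4.18 and 3.87 FPKM in TRF2-depleted, DKO and control hippocampus.

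Of 9 kept MHC class I genes, 7 were higher and 2 lower in TRF2-depleted than in control hippocampus (median log2 ratio 0.29), beside 51.6% higher and a median of 0.01 over all genes. Of their 10 tested rows 3 had p under 0.05, beside 4.89% of all tested rows. These were H2-D1, a classical class I heavy chain, at 9.0 and 6.46 FPKM (p = 0.0163, q = 0.739), the peptide transporter subunit Tap2 at 2.45 and 1.59 FPKM (p = 0.0266, q = 0.826) and the trimming peptidase Erap1 at 1.96 and 1.39 FPKM (p = 0.0486, q = 0.886), in TRF2-depleted and control hippocampus in the authors' deposited table. In DKO these 3 were at 7.75, 1.85 and 1.77 FPKM. In cortex 3 of 9 kept class I genes were higher (median log2 ratio -0.10) and 0 rows had p under 0.05. H2-D1 has close paralogs to which reads could be assigned.

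Among sensors and nucleases the adaptor Myd88 was at 1.81 FPKM in TRF2-depleted, 1.67 FPKM in DKO and 0.845 FPKM in control hippocampus (p = 0.00805, q = 0.585 and p = 0.00905, q = 0.606 against control in the authors' deposited table). Rnaseh2c, a subunit of the RNase that removes ribonucleotides from DNA, was at 14.8 FPKM in TRF2-depleted, 16.7 FPKM in DKO and 10.8 FPKM in control hippocampus (for DKO against control p = 0.00670, q = 0.549 in the authors' deposited table). In cortex Tlr3, an endosomal RNA receptor, was at 2.68 and 2.02 FPKM in TRF2-depleted and control samples (p = 0.0376, q = 0.423 in the authors' deposited table). The list as a whole had median log2 ratios of -0.02 in TRF2-depleted hippocampus, -0.22 in DKO and 0.07 in cortex, each against control. Receptors and signalling genes had medians of -0.07, -0.02 and 0.07 in the same order, with 0 rows at p under 0.05. In TRF2-depleted hippocampus 4 of these 15 genes were higher and 11 lower than in control. At least 1.5-fold lower were 4 (26.7%, against 8.16% of all genes), and 1 was at least 1.5-fold higher (6.67%, against 9.95%). In DKO 6 were higher and 9 lower than in control, and in cortex 9 and 6.

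Markers of other cells that could carry these transcripts moved unevenly. Microglial markers (9 of 9 in the table) summed to 92.5 FPKM in TRF2-depleted, 101 FPKM in DKO and 91.6 FPKM in control hippocampus, with 4 of 9 higher in TRF2-depleted and 8 of 9 in DKO than in control. Endothelial markers summed to 32.0, 30.4 and 31.1 FPKM in the same order, with 6 of 8 and 5 of 8 higher than in control. Meningeal fibroblast markers summed to 309.7, 319 and 197 FPKM, with 7 of 7 and 6 of 7 higher than in control. They thus moved the same way as the antiviral effectors in hippocampus, and their part in those values was not tested. Pericyte and smooth muscle markers summed to 24.6, 20.4 and 19.8 FPKM, with 5 of 5 and 4 of 5 higher. Border macrophage and monocyte markers summed to 3.59, 3.44 and 2.73 FPKM, with 4 of 6 higher in each. The T lymphocyte markers Cd3e, Cd3g and Cd8a were under 0.2 FPKM in all conditions of both tissues. Cd4, from the same list, was at 0.597 and 0.417 FPKM in TRF2-depleted and control cortex. In hippocampus Cd4 was at 0.109, 0.0990 and 0.0432 FPKM in TRF2-depleted, DKO and control. Choroid plexus markers summed to 494 FPKM in TRF2-depleted, 10.2 FPKM in DKO and 278 FPKM in control hippocampus, higher than in control in 7 of 7 and 0 of 7. Their part in the members' values was not tested. In cortex, choroid plexus markers summed to 2.65 and 97.6 FPKM in TRF2-depleted and control samples, microglial markers to 67.3 and 70.1 FPKM, and meningeal markers to 257 and 287 FPKM.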

How the data were processed

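NEBNext Ultra libraries were made from total RNA (RNeasy) of cortex and hippocampus, per the labels' protocols. CASAVA 1.8, TopHat2, Cufflinks, Cuffdiff and mm10 are named in the submitters' processing notes. The annotation and other settings are unknown here.

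Each deposited value is an FPKM per coding-sequence row, pooled by the authors over the samples of a condition, per the file headers. The deposited p-value and q-value of each row come from the authors' test, per the file headers, whose test statistic, a score, was not used. Rows the authors did not test carry no p here. A Benjamini-Hochberg adjustment over all 3 hippocampus comparisons gave the deposited q-values to within 5.26e-07. In cortex the same adjustment missed the deposited q-values by up to 0.335.

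FPKM was summed over the rows of a gene, and log2 ratios were taken without a pseudocount. Where a compared value was 0 no ratio was given. All genes with the same minimum of 0.2 FPKM are the background. Coordinates are the deposited loci, counted from 1. Locus overlaps with other genes were read from RefSeq (GRCm38.p6). Of 35 members 8 have several rows, and 4 loci overlap another protein-coding gene. Promoter windows come from RefSeq.

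The members, lists, minimum and alternatives were chosen with earlier results of these data known. Row statistics are given for members with p under 0.05 in any comparison and for the 3 highest and 3 lowest ratios per comparison among members of at least 1 FPKM. Other rows are given for context. The values of 1 gene of the pathway lists, which the list counts include, are not reported here. The labels do not tie samples to animals, so a p covers the spread between samples, which may be technical. Summing and adjustment were tested on simulated data. Tables and adjustments were computed with pandas 2.3.3 and numpy 2.4.6 under Python 3.11.15, and figures with matplotlib 3.10.9. On the simulated data the adjustment was checked against that of scipy 1.17.1.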

Additional observations from a re-analysis of the deposited data

How the results depend on the processing

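The values are pooled by condition, so leaving out a replicate was not possible and no spread between samples was computed. No paired analysis was possible because the deposited columns carry no replicate numbers. Of 72 alternative values 60 stayed within 0.1 on the log2 scale for a median, or within 1.5 times for a count.

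Called member rows stayed at 0 in all 4 comparisons at a q of 0.1 and when adjusted over a comparison alone. At an unadjusted p under 0.05 there were 3 in TRF2-depleted against control hippocampus and 1 in DKO against TRF2-depleted. The median log2 ratio ranged from 0.30 to 0.31 in TRF2-depleted against control hippocampus, from 0.06 to 0.18 in DKO against control, from -0.15 to -0.11 in DKO against TRF2-depleted, and from 0.00 to 0.11 in cortex, where it was 0.00 with the most abundant row.

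Members at least 1.5-fold higher in TRF2-depleted than in control hippocampus were 9 of 31 in the main setting. They were 11 with the most abundant row, 8 when centred on the median of all genes and 6 with a pseudocount of 0.1 FPKM. With a minimum of 1 FPKM they were 6 of 19. At that minimum, members at least 1.5-fold higher in TRF2-depleted cortex numbered 2 and those lower 1. The same minimum left 1 lower in DKO than in control, and 3 lower in DKO than in TRF2-depleted hippocampus. With a pseudocount of 0.1 FPKM, 1 was lower in cortex and 3 in DKO against TRF2-depleted. With the most abundant row, 1 was lower in cortex, 2 were lower in TRF2-depleted than in control hippocampus, and 2 were higher in DKO than in TRF2-depleted. With no minimum 2 were higher in that last comparison. The smaller number of genes kept is part of the counts at 1 FPKM, and for the others the cause was not tested. The unknown depth limits every ratio of genes under 1 FPKM.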
